A study of Mus musculus with 18 samples.

Results

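The effect of losing the luteinizing hormone (LH) receptor was measured in testes that also carried a mutation of the follicle-stimulating hormone (FSH) receptor. The 9 arrays concerned were 4 labelled Fshr mutant and 5 labelled Fshr mutant/Lhr null, called double mutant here, of 18 arrays of the series. The signal columns name the genotypes Fshr-CAM/WT and Fshr-CAM/Lhr-/-. Every array held total RNA of a whole testis from a 12-week-old mouse of a cross of FVB/N and C57/BL6. By the labels, both groups carry the Fshr mutation and differ in the Lhr genotype, but the Fshr level on 1 array went against its label. Wild type testes (4 arrays) and testes labelled Lhr null without the Fshr mutation (5 arrays) gave levels on the same scale. The labels state neither how the mutation alters the receptor nor which cells carry it, although Fshr-CAM is known from published work as a constitutively active FSH receptor. They also do not say that the arrays of a genotype came from separate mice, so a p-value here reflects variation among the hybridised samples, which may be technical. A probe was kept when its signal stood above the negative controls, at a detection p below 0.01, on at least 4 of the 9 arrays. That rule kept 16776 of 45281 probes, which stood for 9778 named genes with the brightest probe taken for each.

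LH acts on Leydig cells, which lie between the seminiferous tubules and make testosterone and the peptide Insl3. FSH acts on Sertoli cells, which line the tubules and support the germ cells. Testosterone from Leydig cells also acts on Sertoli cells through the androgen receptor, and completion of spermatid development depends on it. Levels below are log2 intensities after background correction and quantile normalization, and a difference is the double mutant minus the Fshr mutant on that scale. A gene was called at an adjusted p below 0.05 in limma, with Benjamini-Hochberg adjustment over all probes kept. In whole testis, fewer cells of a type and less RNA per cell cannot be told apart.

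The Fshr level separated 1 double mutant array from the other 4. Fshr stood at 8.52, 8.74, 8.44 and 8.67 on the Fshr mutant arrays. It stood at 8.84, 5.68, 8.61, 9.25 and 8.45 on double mutant arrays 1 to 5. The double mutant array with the label replicate 2 therefore differed by -3.10 from the mean of the other 4 double mutant arrays and lay beside the wild type level of 5.58 ± 0.30 (SD, n = 4), while the Lhr null arrays stood at 7.93 ± 0.31 (SD, n = 5). Replicate 2 below means the array with that label. The receptor gene for LH, Lhcgr, has no named probe in the array annotation used here, so the Lhr label of an array was not checked on its own transcript. No array was moved to another group, and the fits were made with and without replicate 2. The arrays detected 15487 to 17347 probes among the 9 compared, and 0 pairs of arrays were identical. The number of arrays limits the precision.

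With all 9 arrays, 1 of 9778 genes was called (0.0102%), and it was lower in the double mutant. That gene was Klk1b22, a tissue kallikrein. At an unadjusted p below 0.05 in limma, 905 genes differed with all 9 arrays (9.26% of those tested). A second probe of Ctsh (cathepsin H, a lysosomal protease) and a second probe of Iqgap2 were also called with all 9 arrays. Both were lower (limma adjusted p = 0.0271 and 0.0412). The brighter probe of each gene was not called in that fit. Without replicate 2, the brighter probe of Ctsh was called and that of Iqgap2 was not. Neither second probe, nor the probe of Klk1b22, was detected on any of the 5 double mutant arrays. All 3 passed the probe filter through the Fshr mutant arrays alone, so only a lower call was open to them. Of the genes tested, 11 passed the filter in that way. Taking the lowest detected signal of each double mutant array, the second probes of Ctsh and Iqgap2 were at least 1.54-fold and 1.23-fold lower. Without replicate 2, 65 of 9778 genes were called (0.665%). Of these, 64 were lower in the double mutant (0.655%) and 1 was higher (0.0102%). The median difference over all genes tested was 0.01 with all 9 arrays and 0.02 without replicate 2. All 65 genes had the same sign of difference with all 9 arrays. Thus 1 array decides the number of calls. The call of Klk1b22 with all 9 arrays was lost in each of the 8 fits that left out 1 array other than replicate 2 (limma adjusted p = 0.0563 to 0.141). Leaving out, beside replicate 2, Fshr mutant array 1 or 3 or double mutant array 3 or 5 as well gave 30, 34, 32 and 30 called genes. Of the 27 genes named below that were called without replicate 2, 26 were not called with all 9 arrays, at limma adjusted p-values from 0.105 (Mrap) to 0.467 (Lcn2). Without replicate 2, 16 of the 27 were called whichever further array was left out: Akr1cl, Ass1, Ces1d, Ephx1, Fabp3, Grm7, Gsta3, Gstm1, Hsd17b3, Insl3, Klk1b21, Klk1b22, Klk1b24, Klk1b27, Lcn2 and Ptgds. The other 11 lost the call on leaving out at least 1 further array, with adjusted p-values of up to 0.155 in limma.

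Where replicate 2 lay among the 65 genes can be read directly from the levels. It fell inside the range of the Fshr mutant arrays for 28 genes, between the ranges of both groups for 28, beyond both ranges for 8 and inside the range of the other double mutant arrays for 1. It was nearer to the Fshr mutant mean for 58 of 65 genes. Over the 64 lower genes, its median stood 0.12 below the Fshr mutant mean, whereas the medians of double mutant arrays 1, 3, 4 and 5 stood at -0.93, -1.21, -1.06 and -1.18. The 64 genes were chosen in a fit of the Fshr mutant arrays and double mutant arrays 1, 3, 4 and 5, so the places of those arrays depend on the choice. Replicate 2, the Lhr null arrays and the wild type arrays took no part in that fit. The 5 Lhr null arrays stood at -0.49 to -0.74 for the same genes. The 4 wild type arrays stood at -0.15 to 0.59.

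**Figure D1:**
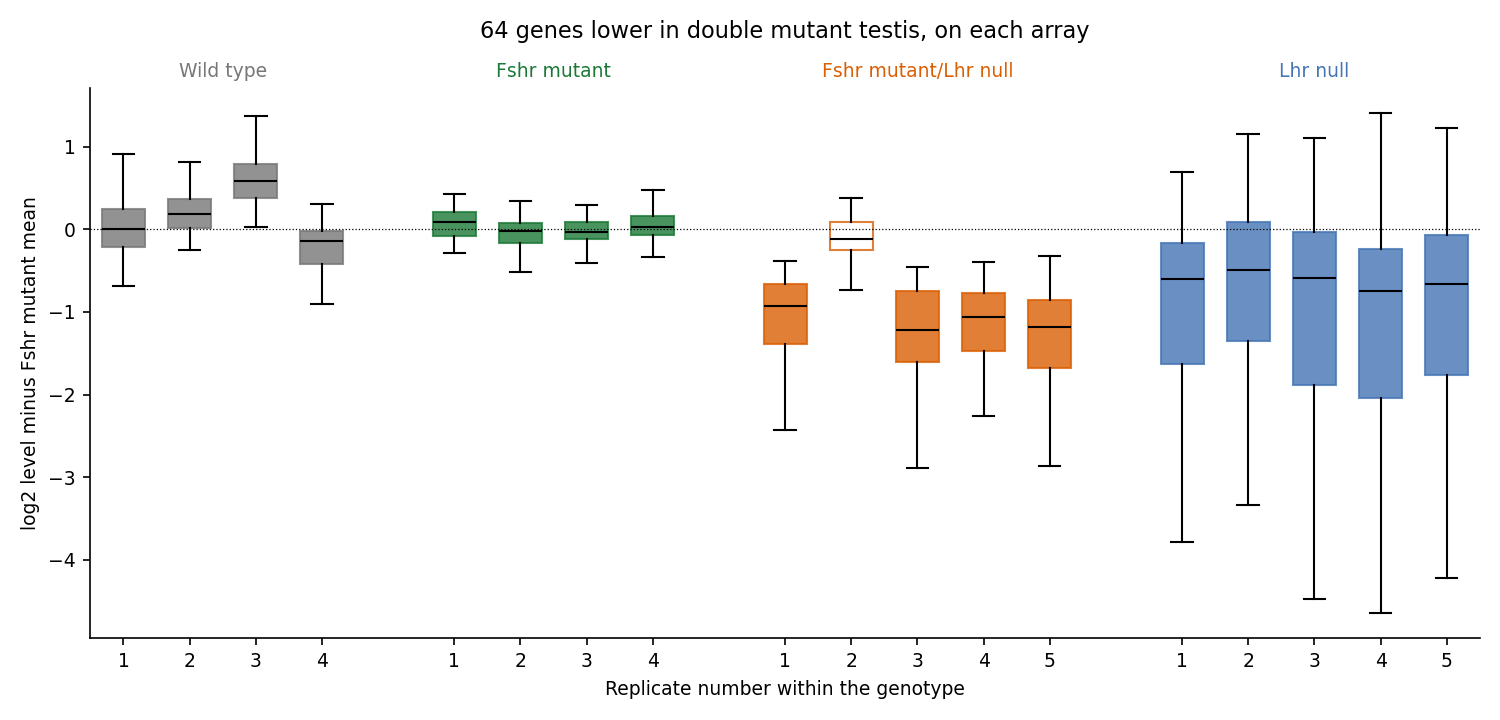
Box plots of the 64 genes called lower without replicate 2, one box per array. The vertical axis is the log2 level minus the mean of the 4 Fshr mutant arrays, the line in a box is the median, the box spans the quartiles and whiskers reach the farthest value within 1.5 box lengths. The open box is double mutant replicate 2, with a median of -0.12, while the other 4 double mutant medians lie between -1.21 and -0.93.

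The genes called without replicate 2 included large differences. The difference exceeded 1 log2 unit for 35 of the 65 genes and 2 log2 units for 8. Their median difference was -1.07. The groups did not overlap for any of the 65, which the choice of these genes on the same arrays largely fixes. Over all genes tested the share without overlap was 6.15% (3.27% with the double mutant lower). Probes were detected on all 4 remaining double mutant arrays for 46 of the 65 genes and on none for 11. For those 11, only the Fshr mutant arrays and replicate 2 carried the probe past the filter, so only a lower call was open. At the border of the call, Bcr was in at an adjusted p of 0.0466 and Pdlim2 was out at 0.0504 by limma. Without replicate 2, 11 probes with no gene name were also called, all lower. Of the 65 genes, 15 belonged to one of the 26 lists of cell types and pathways used here, and 50 to none.

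Among genes of testosterone synthesis, Cyp17a1 and Hsd17b3 were lower without replicate 2. Of 18 steroid synthesis genes, 8 passed the probe filter. Without replicate 2, 2 of these 8 were called, both lower, against 0.665% of all genes tested. The median difference of the 8 was -0.62. In the fit of all 9 arrays, limma called 0 of 8, and the median was -0.45. At an unadjusted p below 0.05 in that fit, 5 differed, against 9.26% of all genes tested. Beside replicate 2, leaving out Fshr mutant array 2 gave 4 calls in this list, and leaving out Fshr mutant array 1 or 3 or double mutant array 3 or 5 gave 1.

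Cyp17a1 makes the androgen precursors in Leydig cells. Its level was 11.99, 10.88, 12.00 and 12.41 on the Fshr mutant arrays and 9.85, 11.60, 9.35, 9.97 and 9.36 on double mutant arrays 1 to 5. Replicate 2 lay within the Fshr mutant range, and the other 4 double mutant arrays lay below all Fshr mutant arrays. Cyp17a1 was 4.56-fold lower without replicate 2 (log2 difference -2.19 ± 0.30, SE, limma adjusted p = 0.0165). With it, the difference was -1.80 ± 0.46 (SE, limma adjusted p = 0.317). The call was lost on leaving out Fshr mutant array 1 or 3 or double mutant array 3 or 5, with an adjusted p of up to 0.0693. Fshr mutant array 2, at 10.88, had the lowest Cyp17a1 and Star of its group.

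Hsd17b3, the testicular enzyme that reduces androstenedione to testosterone, stood at 6.89, 6.80, 7.23 and 7.61 on the Fshr mutant arrays. On the double mutant arrays it stood at 4.87, 7.03, 4.95, 4.53 and 4.45. It was detected on all 4 Fshr mutant arrays and, among the double mutant arrays, on replicate 2 alone. Taking the lowest detected signal of each array in place of a level not well above background, Hsd17b3 was at least 2.84-fold lower without replicate 2 (limma adjusted p = 0.000395). Its limma adjusted p was 0.307 with all 9 arrays.

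Star, which brings cholesterol to the inner mitochondrial membrane, was dim. Its level was 5.70, 4.76, 6.23 and 6.35 on the Fshr mutant arrays and 4.47, 6.11, 4.41, 4.51 and 4.51 on the double mutant arrays. It was above background on 3 of 4 Fshr mutant arrays and on double mutant replicate 2 only. The difference of -1.28 ± 0.30 without replicate 2 did not pass the test (SE, limma adjusted p = 0.146). Cyp11a1, which starts steroid synthesis from cholesterol, had means of 6.94 ± 0.44 (SD, n = 4) and 6.12 ± 0.24 (SD, n = 4) without replicate 2, and its difference of -0.83 ± 0.21 was not called either (SE, limma adjusted p = 0.204). Tspo, an outer mitochondrial membrane protein, and Cyb5a, a cytochrome that helps Cyp17a1, differed by -0.41 and -0.16 and were not called. Probes for Hsd3b1 and Hsd3b6, the enzymes of the step between, did not reach detection on any of the 9 arrays.

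**Figure D2:**
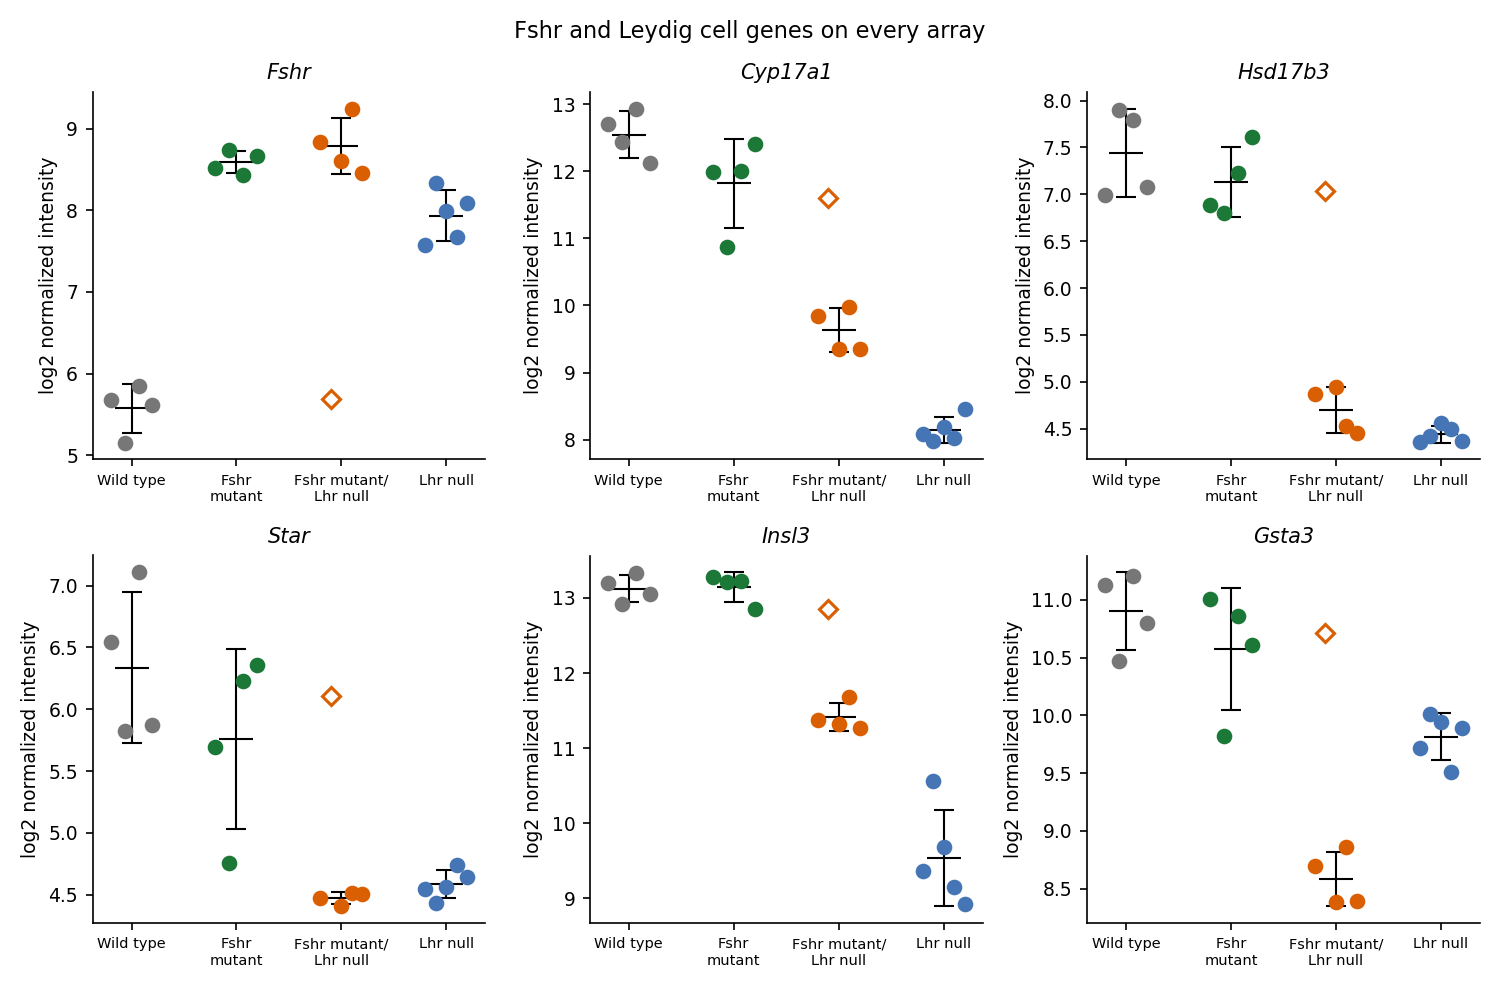
Log2 normalized intensity (vertical axis) of Fshr and 5 Leydig cell genes on each of the 18 arrays, grouped by genotype along the horizontal axis. Bars are the mean ± SD of a genotype; the open diamond is double mutant replicate 2 and is left out of the mean. The diamond lies at the wild type level for Fshr (5.68) and near the Fshr mutant arrays for the other genes, whereas the other 4 double mutant arrays lie below them.

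Among other Leydig cell markers, 5 were lower without replicate 2: Insl3, Ephx1, Gstm1, Retsat and Mgst1. Of 15 on the list, 9 were tested and 5 were called without replicate 2, all lower, against 0.665% of all genes tested. The median of the 9 was -0.88. With all 9 arrays limma called 0 of 9, and the median was -0.76. At an unadjusted p below 0.05 in that fit, 7 differed, against 9.26% of all genes tested. Leaving out Fshr mutant array 2 or 3 or double mutant array 3 or 5 as well gave 3 calls. Insl3, the Leydig peptide that guides testis descent in the fetus, stood at 13.28, 13.22, 13.23 and 12.85 on the Fshr mutant arrays. It stood at 11.38, 12.85, 11.31, 11.68 and 11.26 on the double mutant arrays. The groups did not overlap without replicate 2, which equalled the lowest Fshr mutant array to 2 decimals. Insl3 was 3.33-fold lower without it (-1.74 ± 0.13, SE, limma adjusted p = 0.000333) and had an adjusted p of 0.284 with it.

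Ephx1, a microsomal epoxide hydrolase, was at 10.10, 9.74, 9.71 and 10.13 on the Fshr mutant arrays and at 8.48, 9.67, 8.15, 8.59 and 8.15 on the double mutant arrays. It was 2.99-fold lower without replicate 2 (limma adjusted p = 0.00134; 0.284 with it). Retsat, which saturates retinol, fell by 0.88 and Mgst1, a membrane glutathione transferase, fell by 0.56 (log2, limma adjusted p = 0.0245 and 0.0312; 0.284 for each with all 9 arrays). For Mgst1 the mean over its probes gave a difference of 0.05 in the other direction. Aldh1a1, a retinal dehydrogenase, stood at 10.33, 10.10, 10.09 and 9.66 against 8.93, 9.19, 8.25, 9.36 and 8.48. Its groups did not overlap on the 9 arrays, as for 2.96% of all genes tested. Its limma adjusted p was 0.0555 without replicate 2 and 0.22 with it. Of 10 genes of immature or fetal Leydig cells, 4 were tested; limma called 0, with 1 at an unadjusted p below 0.05.

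Genes of glutathione conjugation and peroxide defence, which share Gstm1 and Mgst1 with the Leydig markers, gave 4 of 21 tested genes called without replicate 2, all lower, at a median of -0.22. Over all genes tested, 0.665% were called in that fit. Limma called 0 of 21 with all 9 arrays, with 7 at an unadjusted p below 0.05, against 9.26% of all genes tested. Leaving out a further array gave 2 calls, or 3 for double mutant array 1 or 4. Gsta3, a glutathione transferase that also isomerises steroid intermediates, stood at 11.01, 9.82, 10.86 and 10.61 on the Fshr mutant arrays. It stood at 8.70, 10.71, 8.38, 8.86 and 8.40 on the double mutant arrays. Gsta3 was 3.97-fold lower without replicate 2 (-1.99 ± 0.24, SE, limma adjusted p = 0.00626; 0.378 with it), and only that array reached the Fshr mutant range. Gstm1 was 2.55-fold lower and Gstm2 1.59-fold lower (limma adjusted p = 0.00583 and 0.0312; 0.317 and 0.443 with replicate 2). Glutathione transferases are close paralogs, and probes of one may take signal from another.

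The kallikreins split within one gene cluster. Kallikreins are secreted serine proteases, and the mouse Klk1 family lies in a cluster on chromosome 7. Of 14 members, 9 were tested. Without replicate 2, 4 were called, all lower, against 0.665% of all genes tested, and the median of the 9 was -0.51. With all 9 arrays 1 was called, against 0.0102% of all genes tested, and the median was -0.49. The sequences of the 250 bases before the start of the 4 called genes and of 2 genes that were not called are shown because the genes are close copies that went different ways. They are from RefSeq, build GRCm38.p6, plus strand of chromosome 7, at chr7:44052040-44052289 (Klk1b27), chr7:44102042-44102291 (Klk1b21), chr7:44187986-44188235 (Klk1b24), chr7:44112423-44112672 (Klk1b22), chr7:43950416-43950665 (Klk1b8) and chr7:44012428-44012677 (Klk1b26). Capitals mark AGGTCA on either strand, the letters of the half-site that many nuclear receptors recognise; the motif was chosen after the values were seen.
Klk1b27: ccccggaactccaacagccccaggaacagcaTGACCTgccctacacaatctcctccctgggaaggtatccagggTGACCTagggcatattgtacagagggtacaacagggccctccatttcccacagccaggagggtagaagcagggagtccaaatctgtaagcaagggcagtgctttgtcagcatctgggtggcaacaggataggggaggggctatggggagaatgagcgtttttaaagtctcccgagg
Klk1b21: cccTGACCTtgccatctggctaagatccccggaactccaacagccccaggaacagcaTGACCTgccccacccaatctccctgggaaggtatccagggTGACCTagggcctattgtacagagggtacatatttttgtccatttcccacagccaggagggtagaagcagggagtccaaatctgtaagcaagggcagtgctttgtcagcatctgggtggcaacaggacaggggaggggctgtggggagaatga
Klk1b24: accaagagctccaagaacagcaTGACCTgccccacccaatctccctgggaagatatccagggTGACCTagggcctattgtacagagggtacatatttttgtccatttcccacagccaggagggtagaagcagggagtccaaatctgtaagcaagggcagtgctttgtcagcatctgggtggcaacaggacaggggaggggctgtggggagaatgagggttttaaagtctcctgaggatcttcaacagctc
Klk1b22: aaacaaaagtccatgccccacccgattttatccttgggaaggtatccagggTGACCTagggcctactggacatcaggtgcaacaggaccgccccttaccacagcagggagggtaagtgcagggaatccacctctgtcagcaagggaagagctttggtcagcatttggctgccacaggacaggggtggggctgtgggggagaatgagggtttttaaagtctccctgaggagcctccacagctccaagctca
Klk1b8: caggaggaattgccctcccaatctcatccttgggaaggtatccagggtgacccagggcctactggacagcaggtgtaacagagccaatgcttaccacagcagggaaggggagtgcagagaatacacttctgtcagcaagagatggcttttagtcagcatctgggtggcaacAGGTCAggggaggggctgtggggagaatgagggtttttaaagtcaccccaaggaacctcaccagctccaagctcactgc
Klk1b26: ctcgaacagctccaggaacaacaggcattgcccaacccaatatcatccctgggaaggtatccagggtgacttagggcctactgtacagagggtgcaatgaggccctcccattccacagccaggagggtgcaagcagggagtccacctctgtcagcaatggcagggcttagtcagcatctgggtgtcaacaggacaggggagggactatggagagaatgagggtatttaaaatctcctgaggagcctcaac
AGGTCA was present in the windows of 4 of the 4 called kallikreins and in 4 of the 5 tested kallikreins that were not called. It was present in 14% of 32851 promoter windows of the same 250 bases. The 2 uncalled windows shown do not stand for the 5: Klk1b26 was the 1 without the motif, and Klk1b8 had it 79 bases before the start. In Klk1b5 and Klk1b9, uncalled and not shown, it lay 201 and 192 bases before the start, against 199 in the called Klk1b22. In these 3 windows it read TGACCTaggg. The window of Klk1, also uncalled and not shown, held TGACCTaggg too. The windows of the 4 called genes were 54.5 to 82.6% identical to each other in pairwise alignment. They were 41.9 to 83.3% identical to those of the 5 that were not called. Presence of the motif anywhere in the window was therefore not limited to the called genes, and the identity ranges overlapped. The windows are cut at annotated starts and are offset from each other, so the identities depend partly on where a start was placed. Whether the position or the neighbouring bases of the motif differ between called and uncalled genes was not tested. Probes for so similar genes may take signal from more than one of them.

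Klk1b27 stood at 9.23, 9.35, 9.34 and 9.52 on the Fshr mutant arrays and at 6.49, 9.40, 6.09, 7.10 and 6.18 on the double mutant arrays. It was 7.43-fold lower without replicate 2 (-2.89 ± 0.20, SE, limma adjusted p = 0.000304; 0.317 with it), and that array lay inside the Fshr mutant range. Klk1b21 was 6.14-fold lower and Klk1b24 5.04-fold lower (limma adjusted p = 0.000333 and 0.000327; 0.284 and 0.301 with replicate 2). For these 2 genes replicate 2, at 9.90 and 8.38, lay just below the lowest Fshr mutant array, at 9.97 and 8.41. The same 3 genes varied widely among wild type arrays, with SDs of 1.96, 1.86 and 1.40 (n = 4) against 0.12, 0.15 and 0.11 among the Fshr mutant arrays.

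Klk1b22 was called with and without replicate 2. Its level was 6.04, 6.43, 6.09 and 6.64 on the Fshr mutant arrays and 4.92, 5.23, 4.74, 5.01 and 4.62 on the double mutant arrays. None of the 5 double mutant arrays reached detection, so its probe passed the filter through the Fshr mutant arrays alone. The groups did not overlap on the 9 arrays, as for 2.96% of all genes tested. Klk1b22 was at least 1.63-fold lower with all 9 arrays (limma adjusted p = 0.0271) and at least 1.60-fold lower without replicate 2 (limma adjusted p = 0.00261). The first call was lost on leaving out any 1 of the other 8 arrays.

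Klk1b8 stood at 12.57, 12.60, 12.49 and 12.55 against 12.66, 12.40, 12.62, 12.47 and 12.43, and Klk1b26 at 10.66, 10.38, 10.69 and 11.00 against 10.74, 11.00, 10.74, 10.69 and 10.61. Both groups overlapped for each gene. Their differences without replicate 2, of -0.01 ± 0.08 and 0.01 ± 0.12 (SE), were not called (limma adjusted p = 0.981 and 0.978), and the sign of each turned under other settings. The other 3 tested kallikreins had differences of -0.51 to -0.16 and were not called.

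**Figure D3:**
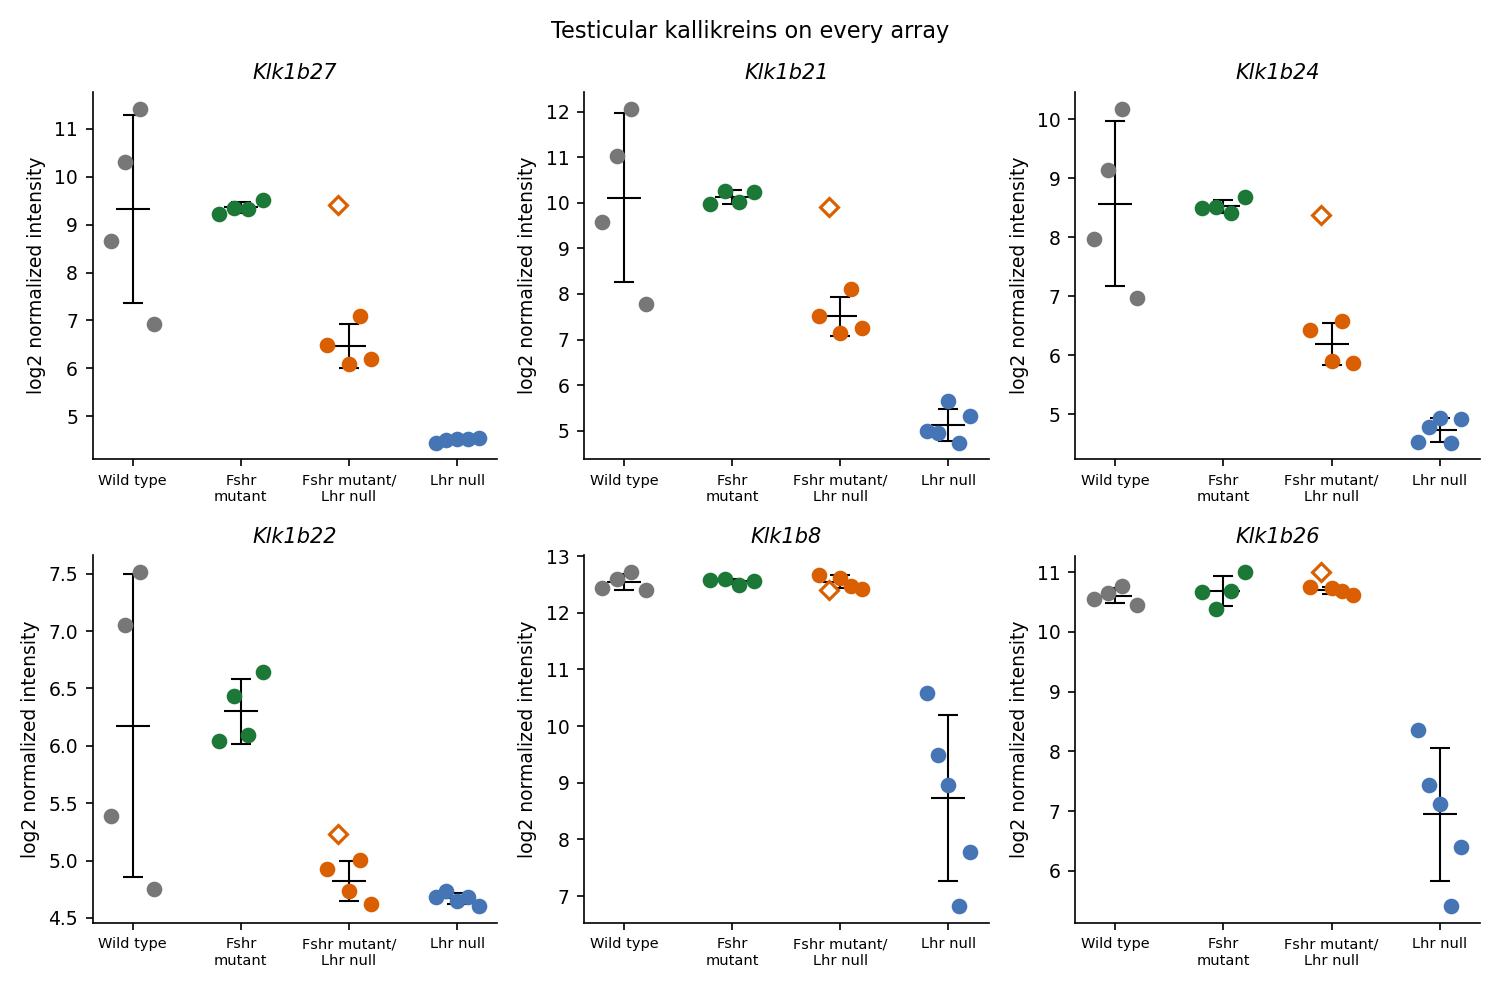
Log2 normalized intensity (vertical axis) of 6 kallikreins on the 18 arrays, grouped by genotype; bars are the mean ± SD and the open diamond is double mutant replicate 2, left out of the mean. Klk1b27, Klk1b21, Klk1b24 and Klk1b22 are lower on double mutant arrays 1, 3, 4 and 5 than on every Fshr mutant array, while Klk1b8 and Klk1b26 overlap; the diamond lies below all Fshr mutant arrays for Klk1b22 and, narrowly, for Klk1b21 and Klk1b24.

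Genes outside the lists made up most of the calls. The lowest was Grm7, a metabotropic glutamate receptor, at 7.77, 7.45, 7.75 and 7.69 on the Fshr mutant arrays. On the double mutant arrays it stood at 4.42, 7.81, 4.70, 4.50 and 4.40, and only replicate 2 was detected. Grm7 was at least 4.10-fold lower without that array (limma adjusted p = 2.09e-06; 0.317 with it). Its level also differed within other genotypes: it was detected on 3 of 4 wild type and 2 of 5 Lhr null arrays.

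Ass1, argininosuccinate synthase of arginine production, stood at 8.76, 7.30, 8.90 and 8.73 against 5.99, 8.51, 5.54, 5.65 and 5.32. It was detected on 1 of the 4 double mutant arrays other than replicate 2, so its size there is uncertain; the difference was -2.80 without replicate 2 (limma adjusted p = 0.00579; 0.347 with it). Ces1d, a carboxylesterase that hydrolyses lipid esters, stood at 9.59, 9.49, 9.59 and 9.63 against 7.29, 9.41, 7.05, 7.47 and 7.18. It was 5.02-fold lower (-2.33 ± 0.10, SE, limma adjusted p = 1.24e-05; 0.284 with replicate 2). In both genes replicate 2 lay far above the other double mutant arrays.

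Lcn2, Apoc1 and Mrap, which are named here outside the lists, were also lower without replicate 2. Lcn2, a secreted lipocalin, was at 11.80, 11.81, 10.97 and 11.54 on the Fshr mutant arrays and at 9.89, 12.25, 9.64, 10.19 and 9.95 on the double mutant arrays. It was 3.06-fold lower without replicate 2, which was the highest of the 9 arrays (limma adjusted p = 0.00602; 0.467 with it). Apoc1, an apolipoprotein, was 2.87-fold lower (limma adjusted p = 0.0167; 0.284 with replicate 2). Mrap carries the melanocortin 2 receptor to the cell surface. Mrap was not detected on any of the 5 double mutant arrays and passed the filter through the Fshr mutant arrays alone. It was at least 1.65-fold lower without replicate 2 (limma adjusted p = 0.0199), and its adjusted p was 0.105 with all 9 arrays.

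Of the fatty acid synthesis and lipid storage list, 1 of 14 tested genes was called without replicate 2, at a median of -0.38. Over all genes tested, 0.665% were called in that fit. When all 9 arrays were fitted, limma called 0 of 14, with 5 at an unadjusted p below 0.05, against 9.26% of all genes tested. Leaving out Fshr mutant array 2 beside replicate 2 gave 3 calls. The called gene, Fabp3, which binds fatty acids in the cytosol, was at 11.12, 10.89, 10.40 and 10.86 against 9.62, 10.82, 9.25, 9.57 and 9.23. It was 2.64-fold lower (-1.40 ± 0.16, SE, limma adjusted p = 0.00512; 0.331 with replicate 2). Scd1, a fatty acid desaturase, had a difference of -1.31 ± 0.27 that was not called (SE, limma adjusted p = 0.0926). Without replicate 2 limma called 0 of 15 cholesterol synthesis genes and 0 of 11 cholesterol uptake genes, with medians of -0.15 and -0.01. At an unadjusted p below 0.05, 4 of each differed, against 10.2% of all genes tested.

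Ptgds, which makes prostaglandin D and is on the list of Sertoli markers, was called without replicate 2. It was the 1 gene called of 15 tested on that list, against 0.665% of all genes tested. Its level was 9.72, 9.86, 9.16 and 9.30 on the Fshr mutant arrays and 7.49, 8.80, 7.97, 8.04 and 7.55 on the double mutant arrays. All 5 double mutant arrays were below all Fshr mutant arrays. The groups did not overlap on the 9 arrays for 2.96% of all genes tested. Ptgds was 3.36-fold lower without replicate 2 (-1.75 ± 0.19, SE, limma adjusted p = 0.00362), and its difference with it was -1.54 ± 0.26 (SE, limma adjusted p = 0.156). The median over the 15 Sertoli markers was 0.04. With all 9 arrays 0 of 15 were called by limma and 1 differed at an unadjusted p below 0.05.

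Cldn10, a claudin of tight junctions, also kept its groups apart on all 9 arrays, as did 2.96% of all genes tested. It stood at 7.37, 7.08, 7.50 and 6.02 against 4.86, 4.84, 5.74, 5.67 and 4.94. Its wild type mean, 5.66 ± 0.23 (SD, n = 4), lay below all 4 Fshr mutant arrays. Of the 5 double mutant arrays 1 was detected, so the size is uncertain. The difference was -1.69 ± 0.34 without replicate 2 and did not pass the test (SE, limma adjusted p = 0.0789).

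The single gene called higher without replicate 2 was Lep, which encodes leptin. It stood at 5.58, 5.51, 5.61 and 5.72 on the Fshr mutant arrays and at 6.28, 6.04, 6.05, 6.08 and 6.05 on the double mutant arrays. The groups did not overlap on the 9 arrays, as for 2.96% of all genes tested, though both lay close to background. Lep was 1.42-fold higher without replicate 2 (limma adjusted p = 0.0423), and its adjusted p was 0.156 with all 9 arrays. That call held in 5 of 15 other settings of the processing and in 1 of 8 fits that left out a further array. Dclk3, a protein kinase gene, stood at 5.06, 5.19, 5.49 and 5.57 against 6.06, 6.50, 6.34, 6.03 and 5.92. Its groups did not overlap either, but its difference of 0.76 ± 0.14 was not called (SE, limma adjusted p = 0.0536), and it was detected on 1 of 4 Fshr mutant arrays.

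The germ cell lists gave no called gene in either fit. Without replicate 2, 0 of 9 spermatogonial, 0 of 22 spermatocyte, 0 of 27 round spermatid and acrosome, and 0 of 31 elongating spermatid genes were called by limma. At an unadjusted p below 0.05, where 10.2% of all genes tested differed, the counts were 1, 2, 2 and 3. Their medians were -0.05, 0.02, 0.03 and -0.04. Tnp1, a transition protein that packs spermatid DNA, stood at 14.05, 13.90, 13.81 and 13.66 against 13.57, 13.79, 13.73, 13.98 and 13.75. Tssk6, a spermatid kinase, stood at 12.75, 12.89, 12.87 and 12.89 against 12.86, 12.78, 12.89, 12.58 and 12.85. The groups overlapped for both genes, whose differences were -0.10 ± 0.11 and -0.05 ± 0.09 (SE).

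Androgen-dependent genes of Sertoli cells gave 0 of 13 called in either fit, with 1 at an unadjusted p below 0.05 without replicate 2 and a median of 0.02. Leaving out double mutant array 4 as well gave 1 call. Rhox5, a homeobox gene that androgen maintains in Sertoli cells, stood at 9.17, 9.10, 9.43 and 9.19 against 9.35, 9.11, 9.07, 9.14 and 9.26. The groups overlapped, and the difference was -0.02 ± 0.10 without replicate 2 (SE, limma adjusted p = 0.97). Shbg, the androgen-binding protein of Sertoli cells, stood at 6.58, 6.89, 6.84 and 6.47 against 6.61, 6.30, 6.71, 6.53 and 6.27, also with overlap (limma adjusted p = 0.672).

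No list of another cell type had a called gene. Without replicate 2 limma called 0 of 13 macrophage genes, with 5 at an unadjusted p below 0.05, against 10.2% of all genes tested. Their differences ran from -0.73 to 1.57 around a median of -0.20. The summed macrophage level, as the mean log2 level of the 13 against the Fshr mutant mean, ranged from -0.18 to 0.19 on the Fshr mutant arrays and from -0.45 to 0.42 on the 5 double mutant arrays. Endothelial genes gave 0 of 8, peritubular myoid genes 0 of 7, lymphocyte genes 0 of 2 and red blood cell genes 0 of 4, all with 0 at an unadjusted p below 0.05. Matrix genes gave 0 of 12, with 1 at an unadjusted p below 0.05. None of 12 epididymis genes passed the probe filter. Genes of the cAMP and immediate-early response gave 0 of 12 and gonadotropin and steroid receptors 0 of 4, each with 1 at an unadjusted p below 0.05. Stress and hypoxia genes gave 0 of 10, interferon genes 0 of 1, and ribosomal and housekeeping genes 0 of 12, with 0 at an unadjusted p below 0.05.

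**Figure D4:**
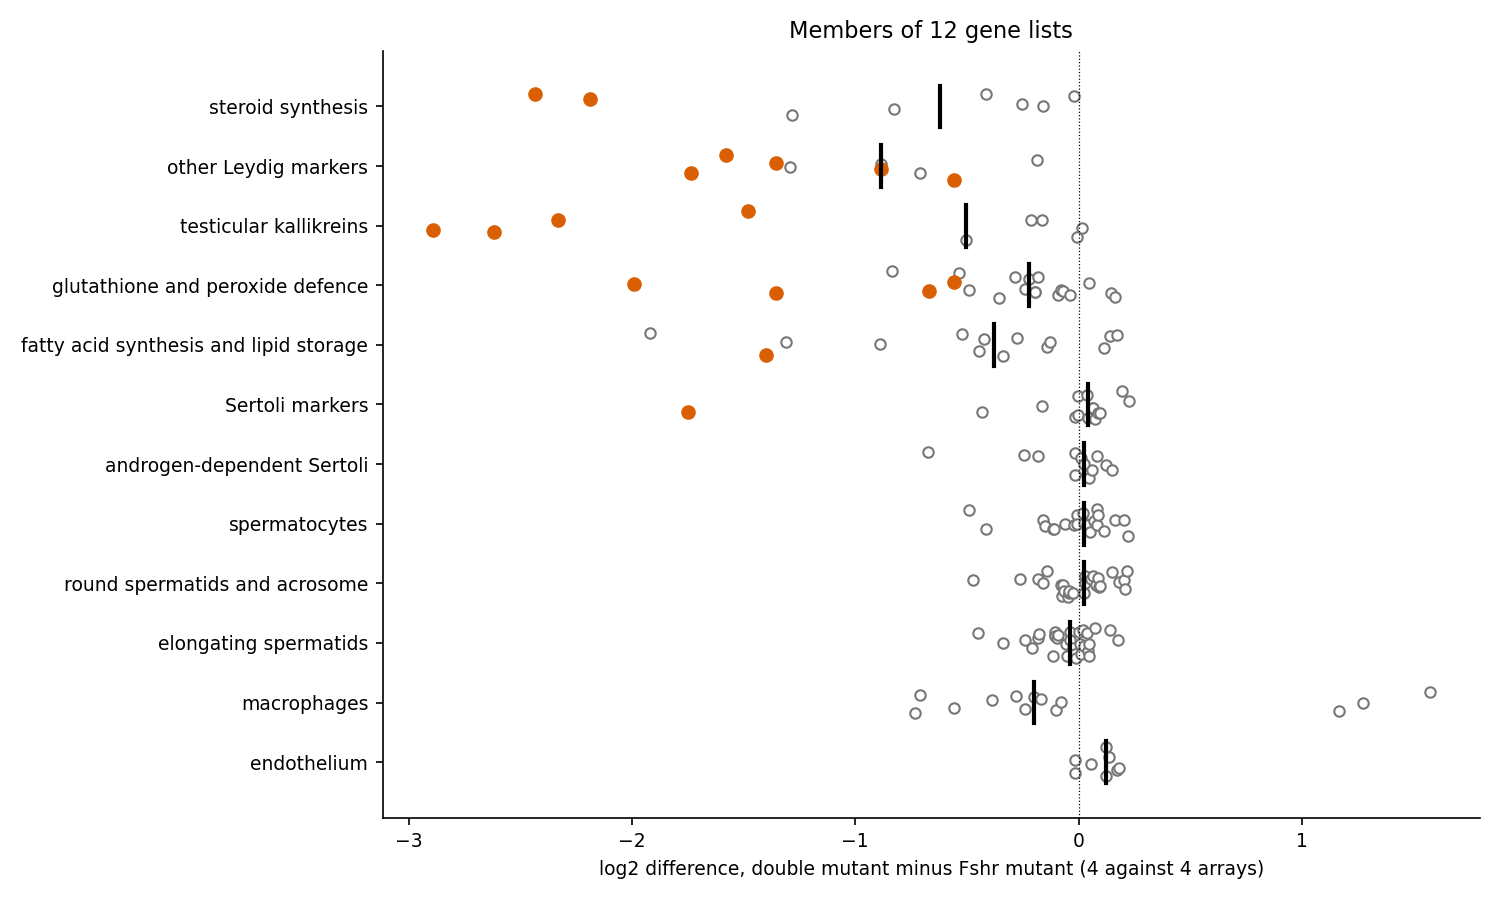
Log2 differences, double mutant minus Fshr mutant without replicate 2 (horizontal axis, 4 against 4 arrays), of the tested members of 12 gene lists (rows). Filled points passed the limma test, open points did not, and vertical bars are list medians. Called members lie in the steroid, Leydig, kallikrein, glutathione and fatty acid lists, with Ptgds the only one among the Sertoli markers.

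Loss of Lhr was also measured without the Fshr mutation, as Lhr null against wild type. These testes differed for 71.9% of the genes tested in the fit without replicate 2 (29.5% lower, 42.4% higher). In them 30 of 31 elongating spermatid genes and 24 of 27 round spermatid genes were lower, while no gene of either list was called in the double mutant comparison. Whether the differing germ cell gene levels take part in the values below was not tested. Of the 65 genes called without replicate 2, 43 were also lower in Lhr null than in wild type testis, 3 were higher and 19 were not called. Separately, 57 of the 65 were called in the double mutant against wild type in the fit of 17 arrays, where 1.69% of all genes were called. That comparison shares the double mutant arrays.

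Whether Lhr loss acted to a different extent with and without the Fshr mutation was tested as the difference of both effects, which share no array. That difference was called for 61.5% of genes with all 18 arrays (36% lower, 25.6% higher with the Fshr mutation). Cyclic loess normalization turned the split to 2603 lower and 3008 higher, against 3516 and 2501 in the reported fit. Without replicate 2 it was called for 59.9% of all genes (35.1% lower, 24.8% higher) and for 33 of the 65. The effect with the Fshr mutation was the lower one for 20 of the 33 and the higher one for 13. The 65 genes were chosen by that same effect, with 64 lower, and it enters the difference. The choice therefore pushes the difference down, and the split is not independent of it.

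Of the 8 steroid synthesis genes tested, the difference was called with the effect under the Fshr mutation lower for 4 and higher for 1, Cyp17a1. The median difference of the effects was -0.17. Over all genes the called shares were 35.1% lower and 24.8% higher. A lower effect need not be a larger fall, as 4 of the 8 were called higher in Lhr null testis and 4 lower. Cyb5a and Tspo, among the 4 with the lower effect, rose there by 1.13 and 0.40 and were not called in the double mutant comparison. Of the 9 other Leydig markers, the difference was called with that effect lower for 5 and higher for 1, Insl3, with a median of -0.905. In Lhr null testis 5 of these 9 were called lower and 2 higher. Cyp17a1 was lower by 4.40 log2 units in Lhr null testis and by 2.19 in the double mutant, and the effects differed by 2.21 ± 0.36 (SE, limma adjusted p = 8.7e-05). For Insl3 the effects were -3.59 and -1.74 and differed by 1.85 ± 0.34 (SE, limma adjusted p = 0.000267). For Lcn2 they were -6.50 and -1.61, a difference of 4.89 ± 0.43 (SE, limma adjusted p = 1.22e-06). Lcn2 and Ptgds were detected on 2 of 5 Lhr null arrays and Ces1d on 3, so the sizes of their differences are uncertain. Ptgds, Fabp3 and Ces1d gave differences of 2.18, 1.36 and 1.66, each called. For Klk1b8 and Klk1b26 the effects without the Fshr mutation were -3.81 and -3.66, and the differences of 3.80 and 3.67 were called. For Rhox5 and Tssk6 the effects without the Fshr mutation were -2.21 and -4.09, and the differences of 2.19 and 4.03 were called.

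For other genes the difference of the effects was not called or was negative. For Hsd17b3 the effects were -3.00 and -2.43, and their difference of 0.56 ± 0.28 was not called (SE, limma adjusted p = 0.0987); both depend on arrays below detection. For Ass1 they were -2.74 and -2.80, with a difference of -0.06 ± 0.38 (SE, limma adjusted p = 0.906), with the double mutant level mostly below detection. For Gsta3 they were -1.09 and -1.99, and the difference of -0.90 ± 0.30 was called without replicate 2 (SE, limma adjusted p = 0.0178) but not with it (0.438). Gstm1 gave -0.45 and -1.35, and a difference of -0.91 ± 0.27 (SE, limma adjusted p = 0.00862; 0.122 with replicate 2). Akr1cl, an aldo-keto reductase, gave -0.44 and -1.51, a difference of -1.08 ± 0.23 (SE, limma adjusted p = 0.000855). Slc45a3, a solute carrier, gave -0.28 and -1.54, a difference of -1.26 ± 0.33 (SE, limma adjusted p = 0.00366). It was not detected on the 4 double mutant arrays other than replicate 2 and was at least 1.54-fold lower there than in the Fshr mutant.

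The 3 genes called lower in the double mutant without replicate 2 and higher in Lhr null testis were Mgst1, Papss2 and Smpdl3b. The lower call was weak in each. Of 8 fits that left out a further array, it held in 1 for Mgst1, 1 for Papss2 and 2 for Smpdl3b. Papss2 and Smpdl3b had limma adjusted p-values of 0.0459 and 0.0336 without replicate 2, and of 0.284 and 0.199 with it. For Mgst1 the sign turned with the mean over its probes. Papss2, which makes the sulfate donor used by sulfotransferases, stood at 7.01, 7.12, 7.19 and 7.26 on the Fshr mutant arrays and at 6.73, 6.87, 6.48, 6.19 and 6.22 on the double mutant arrays. Smpdl3b, a membrane phosphodiesterase, stood at 7.04, 7.25, 7.45 and 7.25 against 6.36, 6.86, 6.66, 6.69 and 6.51. In both genes all 5 double mutant arrays, replicate 2 included, lay below all Fshr mutant arrays. Both were chosen as called on 8 of these arrays, and the groups did not overlap on the 9 for 2.96% of all genes tested. The effects differed by -1.17 ± 0.17 for Papss2 and by -1.70 ± 0.22 for Smpdl3b (SE, limma adjusted p = 4.34e-05 and 1.32e-05). For Mgst1 the difference was -1.11 ± 0.20 (SE, limma adjusted p = 0.000223). These 3 genes were chosen by the signs of both effects on the same arrays. That choice fixed the sign of the difference, so its p-values are not independent support.

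**Figure D5:**
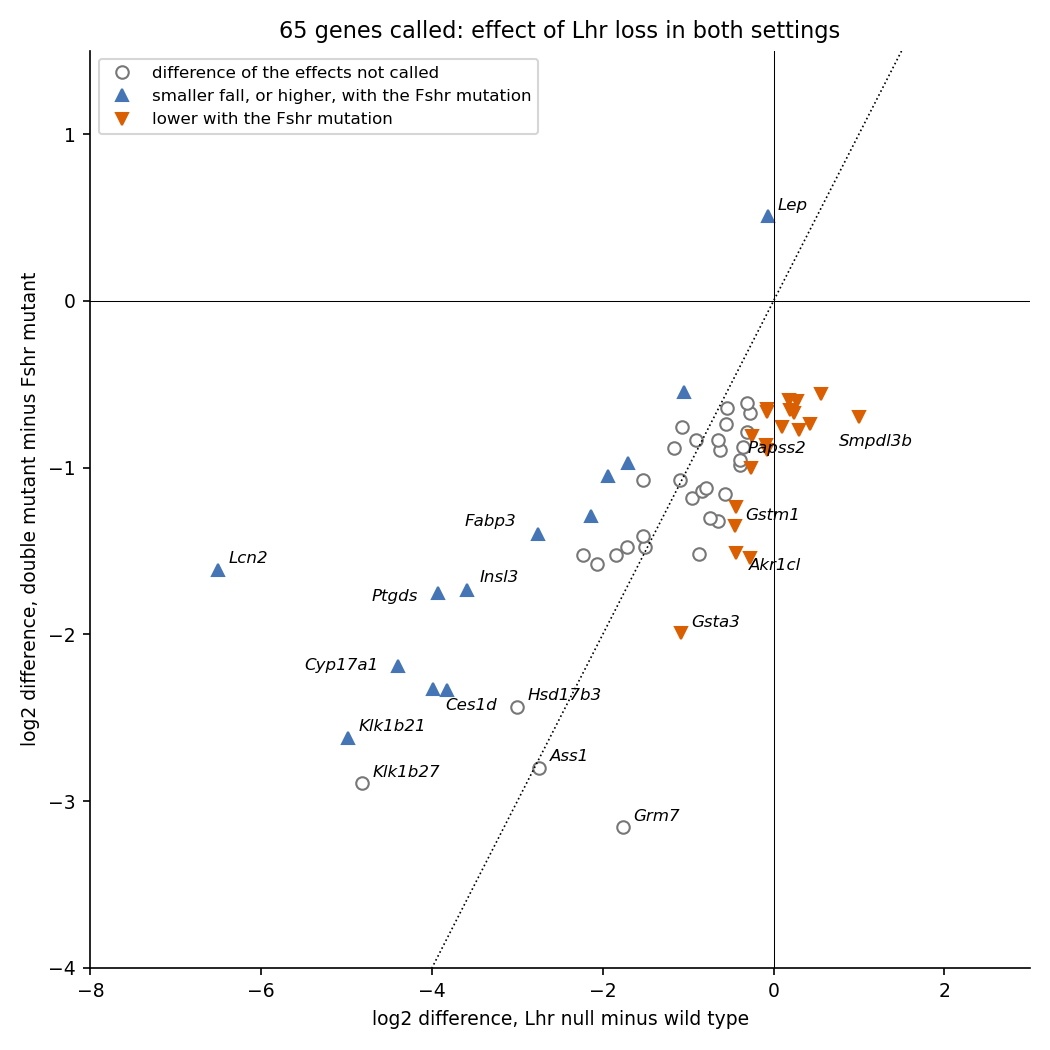
The 65 genes called without replicate 2: the log2 difference of Lhr null minus wild type (horizontal axis) against that of double mutant minus Fshr mutant (vertical axis), with a dotted line of equal effects. Filled triangles mark a called difference of the effects. They point up where the effect with the Fshr mutation was the higher one (13 genes) and down where it was the lower one (20 genes). The genes were chosen by their vertical value, which enters that difference. Of the 65 genes, 6 were not detected on any Lhr null array and 13 on 1 to 4 of the 5, so their horizontal places are uncertain. Lcn2 lies far left of the line, at -6.50 and -1.61, and Smpdl3b lies at 1.00 and -0.69.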

How the data were processed

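Total RNA of 12-week mouse testis was labelled with biotin and hybridised to Illumina bead arrays, per the labels' protocols. The authors deposited a table of non-normalized intensity per probe, with a detection p-value and a bead count per probe and array, per the file headers; GenomeStudio 1.7.0 is named in the submitters' processing notes. A deposited value table holds processed intensities on a linear scale with a median of 61.6 to 61.7 on every array; a normalization not given in the sources used here produced them, and it served as an alternative. Here, intensities of 18 arrays were background-corrected by normexp (background estimated from the detection p-values, offset 16), quantile normalized and log2 transformed in limma 3.58.1 (R 4.3.3). Group means of the 9 arrays were compared with lmFit and eBayes. Detected genes took their brightest probe by mean over the 9 arrays. Of 45281 probes, 34885 had 1 gene symbol, 18 several and 10378 none. A probe not detected on any array of a group gave an "at least" fold, computed as the mean of the bright group over the mean, on each dim array, of the higher of its lowest detected signal and its own. The fits were tested on simulated data. Replicate numbers were not used to pair samples in the main fits: deviations of same-numbered arrays correlated at -0.26 to 0.04. With 4 pairs, these values cannot settle whether same-numbered samples shared handling. The labels give no slide or scan, so neither could be tested. The comparison, the gene lists and the named genes were chosen with earlier results of these data known. Named were Fshr, the 8 highest and 8 lowest called genes per fit, up to 3 called genes per list, a fixed set, and, after their values were seen, Retsat, Mgst1, Aldh1a1, Tspo, Cyb5a, Scd1, Apoc1, Mrap, Akr1cl, Slc45a3, Papss2, Smpdl3b, Ctsh, Iqgap2, Klk1b8 and Klk1b26. Alternatives covered background, normalization, filter, shared spread, array weights, probe choice, replicate block and leaving out arrays.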

Additional observations from a re-analysis of the deposited data

Results flagged for a closer look

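Over 42 genes in 2 genotypes, 17 levels stood apart from the rest of their group by Dixon's criterion, which chance alone meets in about 1 of 20 groups; 13 were on double mutant replicate 2. Most of these genes were chosen as called without that array, and Fshr is the gene that singled it out, so that rate does not apply to the 13. Its Fshr level was 5.68 against a mean of 8.79 on the other 4 double mutant arrays. It stood above the others for Cyp17a1 (11.60 against 9.63), Hsd17b3 (7.03 against 4.70), Star (6.11 against 4.47), Insl3 (12.85 against 11.41), Ephx1 (9.67 against 8.34) and Gsta3 (10.71 against 8.58). It also did so for Klk1b24 (8.38 against 6.19), Grm7 (7.81 against 4.51), Ass1 (8.51 against 5.62), Ces1d (9.41 against 7.24), Lcn2 (12.25 against 9.92) and Fabp3 (10.82 against 9.42). Whether this array carries a genotype other than its label was not tested. The other 4 were on other arrays: Insl3 was 12.85 on Fshr mutant array 4 (mean of the others 13.24), Ass1 7.30 on Fshr mutant array 2 (8.80), Lep 6.28 on double mutant array 1 (6.05) and Tssk6 12.75 on Fshr mutant array 1 (12.88).

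For 28 of the 42 genes, the effect of Lhr loss differed with and without the Fshr mutation in limma without replicate 2, where 59.9% of all genes did. Many of the 42 were chosen as called on 1 of these effects, so the counts and signs depend partly on that choice. The difference was positive for 15: Lcn2 4.89, Tssk6 4.03, Klk1b8 3.80, Klk1b26 3.67, Klk1b21 2.36, Cyp17a1 2.21, Rhox5 2.19, Ptgds 2.18, Insl3 1.85, Ces1d 1.66, Klk1b24 1.5, Dclk3 1.49, Fabp3 1.36, Tnp1 1.17 and Lep 0.58. It was negative for 13: Shbg -2.45, Fshr -2.16, Smpdl3b -1.70, Cyb5a -1.29, Slc45a3 -1.26, Papss2 -1.17, Aldh1a1 -1.15, Mgst1 -1.11, Akr1cl -1.08, Gstm2 -0.91, Gstm1 -0.90, Gsta3 -0.90 and Tspo -0.82. Their adjusted p-values ranged from 1.22e-06 for Lcn2 to 0.0442 for Klk1b24. Klk1b24 was not detected on any Lhr null array, so no size is read from its value. Detection on the 5 Lhr null arrays was also partial for Lcn2, Klk1b21 and Ptgds (2 each), Ces1d and Lep (3 each) and Dclk3 (1), and Slc45a3 was not detected on double mutant arrays 1, 3, 4 and 5. Aldh1a1, Tspo, Cyb5a, Dclk3, Rhox5, Shbg, Tnp1, Tssk6, Klk1b8, Klk1b26 and Fshr were not called between double mutant and Fshr mutant testis.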

How the results depend on the processing

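With all 9 arrays 1 gene was called, and 2 were under median scaling, 2 with no normalization between arrays, 0 without a probe filter (1547 at an unadjusted p below 0.05 in limma), 0 among probes detected on all 9 arrays (803), 3 with the spread shared over all groups and 0 with the replicate block (550); the causes were not tested. Leaving out each array gave 0 to 65 calls (0 for each array but replicate 2), and leaving out replicate 2 of both genotypes, chosen after seeing the data, gave 54. Without replicate 2, 65 genes were called; median scaling gave 141, no normalization 182, no probe filter 28, array weights 101 and the replicate block 12, and leaving out each further array 30 to 83. Of the 65, 64 were shared with the 141 and 64 with the 182. Median scaling moved the median of all genes to -0.132 and no normalization to -0.187 without replicate 2. The other settings gave 52 to 87 calls. The difference of the effects was called for 6017 genes, for 3831 with no normalization, and for 5728 to 6255 on leaving out each array. The labels do not say whether shared replicate numbers pair samples. Of 4 Fshr mutant arrays, 0 correlated best with their own number, and 10 of the 27 called genes named kept the call under the replicate block. The sign turned for uncalled genes near 0 and for Mgst1. In the fit of all 9 arrays, Klk1b26 went to -0.051 (median scaling), -0.096 (no normalization) and -0.086 (without both replicates 2), Mgst1 to 0.057 (mean of its probes), and Fshr to 0.243 and Klk1b8 to 0.009 (without both replicates 2). Without replicate 2, Klk1b26 went to -0.14 (median scaling), -0.007 (cyclic loess), -0.196 (no normalization) and -0.058 (replicate block), Fshr to -0.021 (no normalization), Klk1b8 to 0.008 (array weights) and 0.048 (replicate block), and Mgst1 to 0.045 (mean of its probes). On leaving out arrays of the 9, Fshr ranged from -0.70 to 0.19, Klk1b26 from -0.025 to 0.18, Klk1b8 from -0.075 to -0.008 and Rhox5 from -0.076 to 0.032. Without replicate 2, Klk1b26 ranged from -0.086 to 0.119, Klk1b8 from -0.048 to 0.031, Rhox5 from -0.064 to 0.051 and Tssk6 from -0.087 to 0.017. Signal over background limits Hsd17b3, Star, Grm7, Klk1b22, Mrap and Slc45a3, whose double mutant levels other than replicate 2 were not detected, and Ass1, Cldn10, Dclk3, Lcn2, Ptgds, Ces1d, Klk1b21 and Klk1b24, each undetected on some or all arrays of a group. It also limits the probes of Ctsh and Iqgap2 called with all 9 arrays, which no double mutant array detected.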
